A study of Homo sapiens with 12 samples.

Results

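The genes described here encode the machinery that moves proteins into the endoplasmic reticulum (ER) and carries them between the ER and the Golgi. They form a list of 53 genes taken by name, with no cut-off on a measured value, though the list was drawn up with earlier results of these data known. Every probe set of the array that the platform annotation pairs with exactly 1 of these gene symbols was used. That gave 137 probe sets of 50 genes, out of 41091 such probe sets of 19775 genes on the array. SEC61G, KDELR2 and TMED7 had no probe set of their own and are not analysed here. Of the 50 genes, 49 passed the filter on low values and were tested, among 10699 genes tested in all. SEC61A2, a paralogue of the channel subunit SEC61A1, did not pass: its log2 value lay between 2.41 and 3.51 on the 12 arrays, below the limit of 4 on each of them.

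The cells were HK-2, an established line made from the proximal tubule of human kidney. They received either a low dose of a compound the labels call Ota or the vehicle alone, and were harvested after 24 h or 72 h, which makes 4 groups of 3 arrays. All 4 groups were grown in the same defined medium with epidermal growth factor, hydrocortisone, insulin, transferrin and selenite. The labels give neither the concentration nor the full name of Ota. They mark the 3 arrays of each group as biological replicates without saying what the cultures shared, so a p-value here measures the spread between these arrays, which may be technical in part. RNA of whole cultures was measured, so a lower level in each cell and a smaller share of cells with that RNA cannot be told apart. Values are on the log2 scale, a difference of 1 is a 2-fold change, and a gene is read from its brightest probe set. Errors of levels are standard deviations (SD, n = 3) and errors of differences are standard errors (SE) of the limma fit.

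A secreted or membrane protein is recognised while it is being made by the signal recognition particle (SRP), which brings the ribosome to its receptor on the ER. The chain then passes through the Sec61 channel, helped by SEC62, SEC63, TRAM1 and the translocon-associated protein complex (TRAP), and signal peptidase cuts off the signal peptide. Folded cargo leaves in vesicles coated with COPII, whose assembly is started by the small GTPase SAR1. COPI-coated vesicles bring escaped ER proteins back from the Golgi: KDEL receptors bind soluble ER residents that end in a KDEL-type signal, p24 proteins and lectins select other cargo, and SNARE proteins fuse vesicle and target membranes. This machinery is known to be raised when cells increase their secretory capacity, among others by the transcription factors of the unfolded protein response and the CREB3 family.

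At 72 h most of this machinery was lower in Ota cells than in control cells, and at 24 h most of it was not distinguishable between them. At 72 h, 37 of the 49 members were called lower and 0 higher at an adjusted p below 0.05 (limma, Benjamini-Hochberg over all 10699 genes). The background of all genes tested was 14.9% lower and 17.1% higher. The median difference of the members was -0.52, against 0.01 for all genes tested. At 24 h, 5 members were called lower and 2 higher, against 21.6% lower and 9.44% higher among all genes, with a median of -0.01 for the members and -0.06 for all genes. In control cells, 34 of the 49 members rose from 24 h to 72 h and 1 fell, where 22.7% of all genes rose and 23.6% fell. In Ota cells, 7 members rose over the same time and 2 fell, with 22.2% and 9.99% of all genes.

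**Figure D1:**
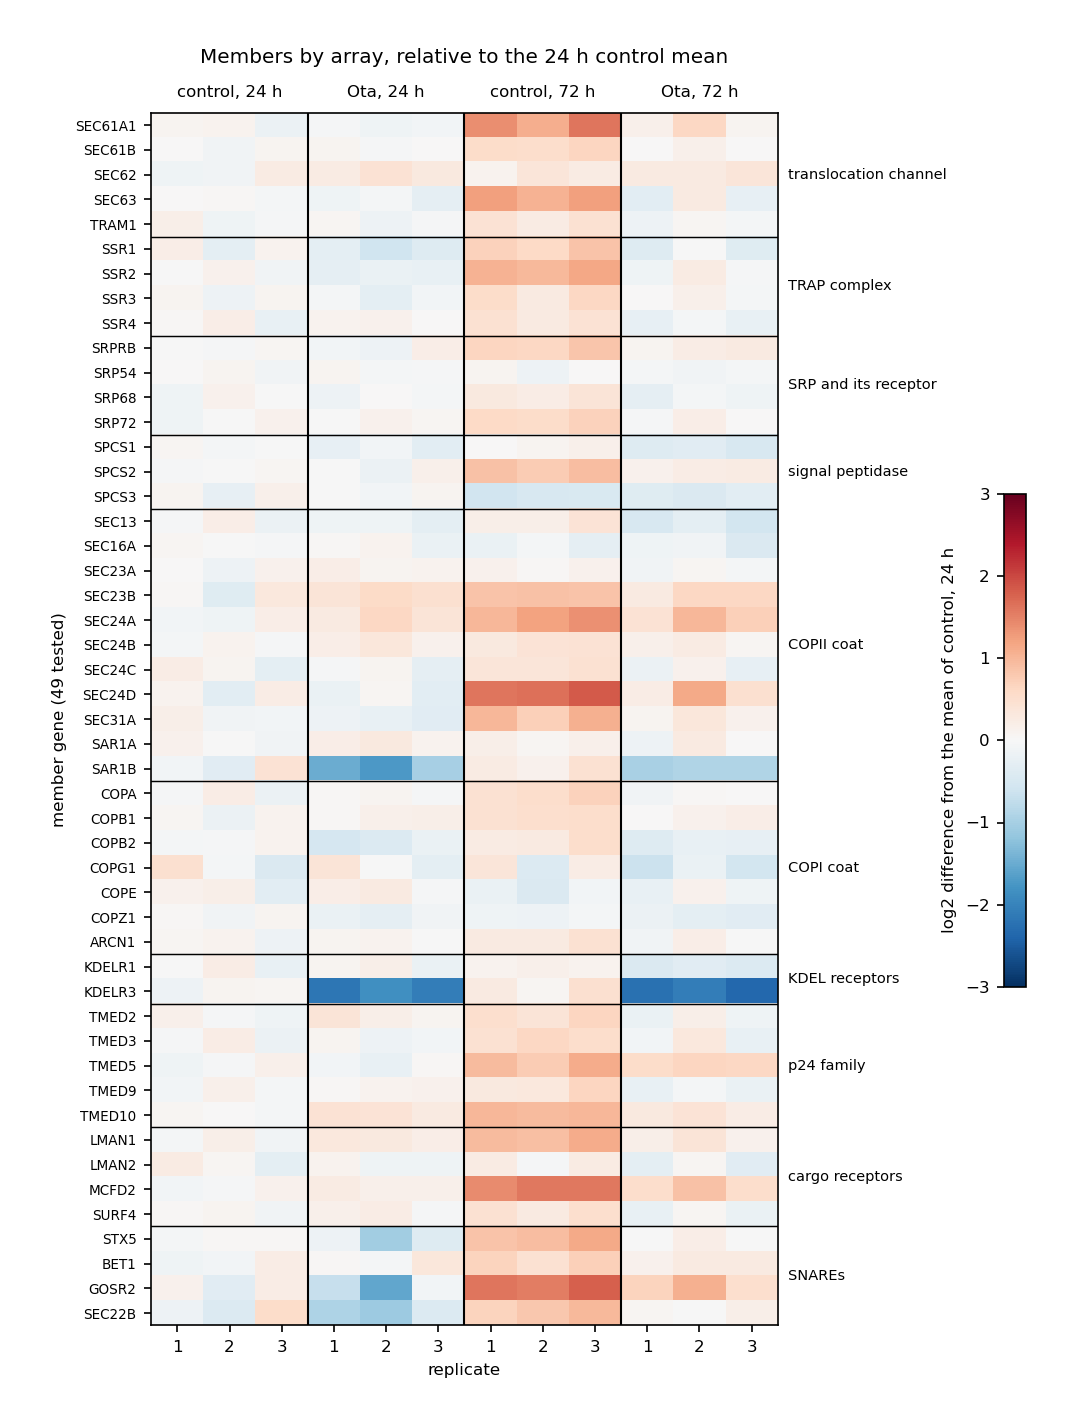
Log2 value of each of the 49 members tested (rows, grouped by role) on each of the 12 arrays (columns, replicates 1 to 3 of each group), as the difference from that gene's mean in control cells at 24 h. Red is higher and blue lower, to 3 in each direction. The control arrays at 72 h are red in most rows, the Ota arrays at 72 h are paler, and KDELR3 and SAR1B are blue in the Ota arrays at both times.

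Control replicate 3 at 72 h was the highest of its group for 40 of the 49 members, and Ota replicate 2 at 72 h was likewise the highest of its group for 40. With any 1 of the 12 arrays left out, between 29 and 38 members were called lower at 72 h. The count was 29 without control replicate 3 and 35 without Ota replicate 2 at 72 h. Of the 37 calls at 72 h, 28 held with each array left out in turn, and those of ARCN1, BET1, GOSR2, SEC22B, SEC24A, SEC24C, SSR3, TMED3 and TMED5 did not. The part of these arrays in the result was not tested further.

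The KDEL receptor KDELR3 showed the greatest difference of any member at both times, on the probe sets read for the genes. Other probe sets of COPB2, SEC63 and SSR1, described further on, differed more at 24 h. At 24 h the log2 value of KDELR3 was 11.07, 11.31 and 11.28 in control cells and 9.06, 9.37 and 9.15 in Ota cells. The 72 h arrays gave 11.50, 11.29 and 11.71 in control cells and 8.99, 9.14 and 8.86 in Ota cells. All Ota arrays were below all control arrays at both times, and the gap was wider than the range within any of the 4 groups. KDELR3 was 4.08-fold lower at 24 h (log2 difference -2.03 ± 0.13, adjusted p = 1.86e-06) and 5.66-fold lower at 72 h (-2.50 ± 0.13, adjusted p = 6.58e-07). The response at 72 h minus that at 24 h was -0.47 ± 0.18, short of the threshold (adjusted p = 0.0901). KDELR1, a paralogue with the same task, at 24 h read 11.19, 11.45 and 11.00 in control and 11.31, 11.40 and 11.02 in Ota cells, where the groups overlapped, and 11.32, 11.35 and 11.31 in control and 10.77, 10.88 and 10.81 in Ota cells at 72 h, where they did not. The difference was 0.03 ± 0.12 at 24 h (adjusted p = 0.899) and -0.51 ± 0.12 at 72 h (adjusted p = 0.00958). KDELR1 was 1 of the 2 members that fell over time in Ota cells, by 0.42 on the log2 scale (adjusted p = 0.0241). That call was lost without Ota replicate 1 or 2 of 24 h or Ota replicate 1 or 3 of 72 h, and its probe set 200922_at was not called. The KDELR1 call at 72 h was lost with the mean of its probe sets (-0.38, adjusted p = 0.0572).

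**Figure D2:**
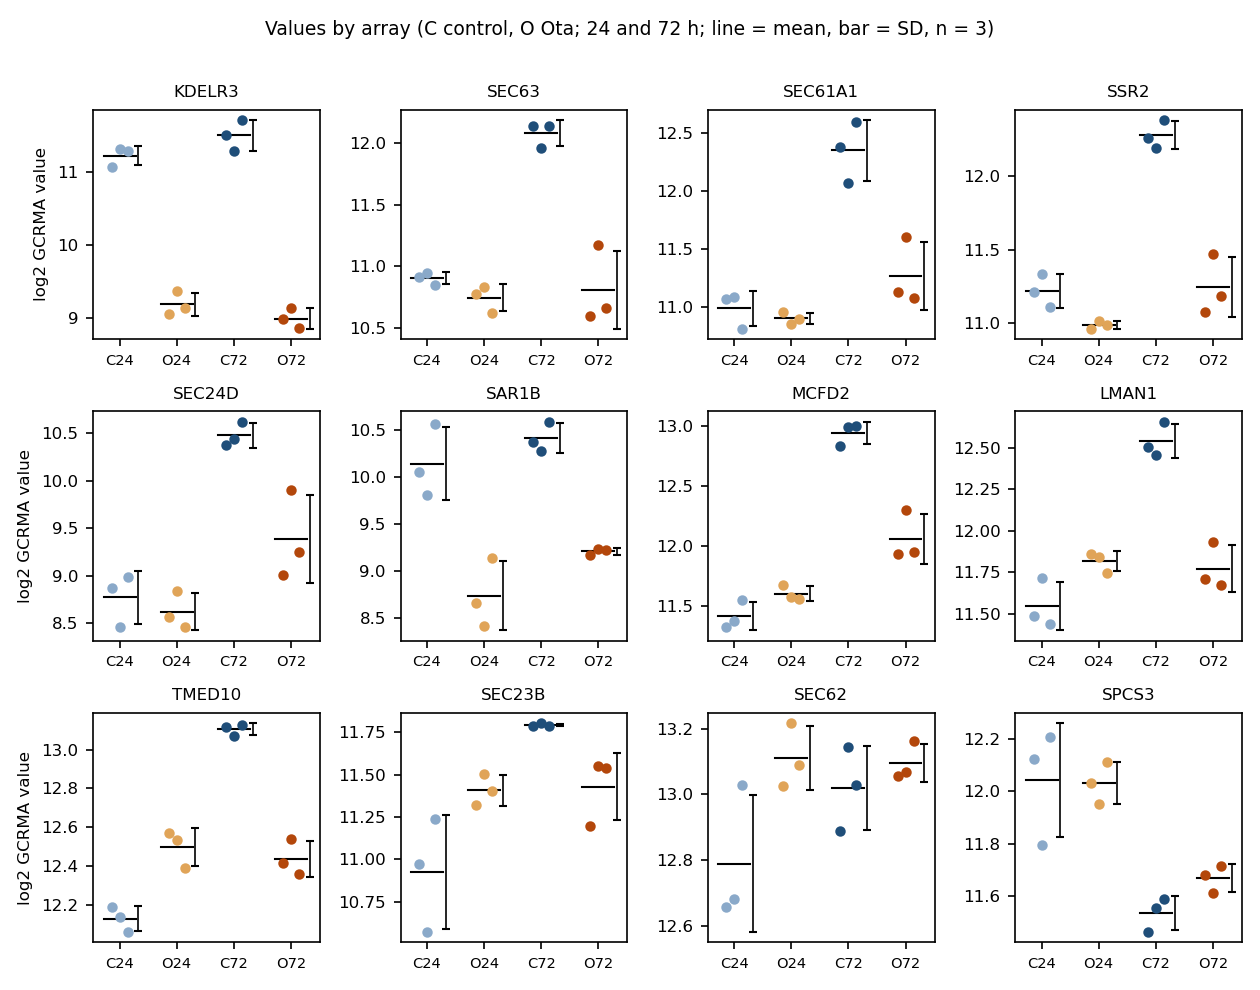
Log2 GCRMA value on each array (points) of 12 members in control cells (C) and Ota cells (O) at 24 h and 72 h, with the group mean (line) and SD (bar, n = 3); each panel has its own vertical axis, which does not start at 0. KDELR3 and SAR1B are low in Ota cells at both times. SEC63, SEC61A1, SSR2, SEC24D and MCFD2 are highest in control cells at 72 h, and SEC62 and SPCS3 show no such pattern. SEC24D and MCFD2 were also called higher at 72 h than at 24 h in Ota cells.

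Among the 4 other members called lower at 24 h was SAR1B, the GTPase that starts the COPII coat. It at 24 h read 10.06, 9.81 and 10.57 in control and 8.66, 8.41 and 9.14 in Ota cells, and 10.38, 10.28 and 10.59 and 9.17, 9.24 and 9.23 at 72 h. The groups did not overlap at either time. SAR1B was 2.65-fold lower at 24 h (-1.41 ± 0.20, adjusted p = 0.000378) and 2.31-fold lower at 72 h (-1.21 ± 0.20, adjusted p = 0.00115), though not on all of its probe sets, as described further on. Its paralogue SAR1A at 24 h read 10.06, 9.93 and 9.82 in control and 10.14, 10.23 and 10.04 in Ota cells, and 10.11, 10.00 and 10.08 and 9.79, 10.21 and 9.94 at 72 h. SAR1A was not called at either time (differences of 0.20 ± 0.11 and -0.08 ± 0.11). This too rests on the probe set read: another SAR1A probe set, described further on, was lower at both times. With the mean of its probe sets SAR1A was called lower at both times.

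SEC22B, STX5 and COPB2 made up the rest of the members called lower at 24 h. SEC22B and STX5 are SNAREs of ER to Golgi traffic. SEC22B read 12.06, 11.79 and 12.75 in control and 11.28, 11.12 and 11.79 in Ota cells at 24 h, a difference of -0.80 ± 0.23 (adjusted p = 0.0191). STX5 read 6.30, 6.40 and 6.39 in control and 6.20, 5.32 and 5.97 in Ota cells, a difference of -0.53 ± 0.18 (adjusted p = 0.0481). Ota replicate 2 was the lowest array of both genes, and no Ota array overlapped the control arrays. For SEC22B this separation was minimal: the highest Ota array read 11.785 and the lowest control array 11.792. COPB2, the beta-prime subunit of the COPI coat, read 11.90, 11.95 and 12.07 in control and 11.46, 11.56 and 11.78 in Ota cells, a difference of -0.37 ± 0.11 (adjusted p = 0.0215). The STX5 call at 24 h was lost when any 1 array other than Ota replicate 1 at 24 h was left out (adjusted p = 0.055 to 0.135). With the mean of its probe sets, COPB2 was higher at 24 h (1.22, adjusted p = 2.75e-05). The calls of SEC22B and COPB2 at 24 h were lost without Ota replicate 1 or 2, or control replicate 3, of that time (adjusted p = 0.0517 to 0.0847).

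Only SEC23B and TMED10 were called higher at 24 h. SEC23B is an inner-coat subunit of COPII that makes SAR1 hydrolyse its nucleotide, and read 10.97, 10.57 and 11.24 in control and 11.32, 11.50 and 11.40 in Ota cells (0.48 ± 0.15, adjusted p = 0.0325). TMED10, a p24 cargo receptor, read 12.19, 12.14 and 12.06 in control and 12.57, 12.53 and 12.39 in Ota cells (0.37 ± 0.08, adjusted p = 0.00616). The groups did not overlap for either gene. The SEC23B call was lost without any 1 of the Ota arrays, or without control replicate 1 or 2, of 24 h (adjusted p = 0.0506 to 0.102). A TMED10 probe set of the other kind, without the suffix that marks shared probes, gave -0.14 at 24 h and was not called. With the replicate number as a block, 4 members were called higher at 24 h and 4 lower: SEC24A and SEC62 were gained and STX5 was lost. After shifting every array to 1 median over the genes tested, an alternative chosen after seeing the data, 8 were higher and 3 lower. The median of all genes at 24 h then moved from -0.06 to 0.07 and that of the members from -0.01 to 0.11, and the members gained were LMAN1, MCFD2, SEC23A, SEC24A, SEC24B and SEC62. Of all genes, 1010 were higher and 2307 lower at 24 h as reported, and 1881 and 1697 under that shift.

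Members were also counted by whether the Ota and control arrays overlapped. At 24 h, 6 of 49 were entirely higher and 10 entirely lower, where 15.4% of all genes were entirely higher and 27.3% entirely lower. At 72 h, 1 was entirely higher and 39 entirely lower, against 26.0% and 25.3% of all genes.

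**Figure D3:**
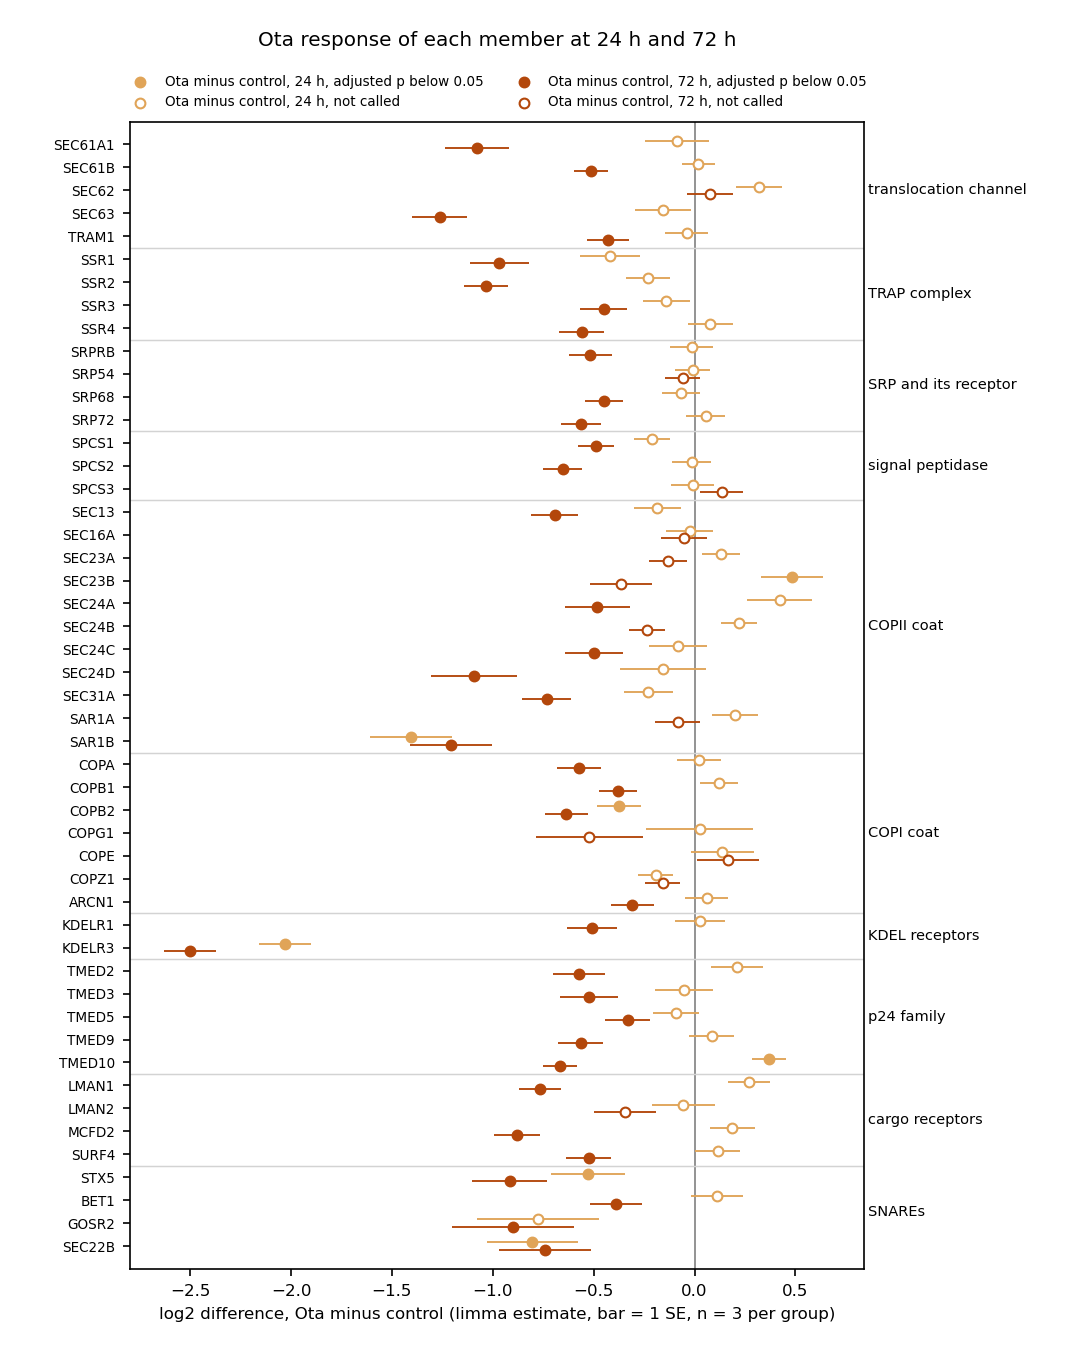
Log2 difference, Ota minus control, of each member at 24 h (light) and 72 h (dark), with 1 SE; filled points were called at an adjusted p below 0.05 and open points were not. Most dark points lie to the left of 0 and are filled, while most light points lie near 0 and are open.

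The channel and its helpers were lower at 72 h in 4 of the 5 members tested. SEC61A1, the pore-forming subunit, at 72 h read 12.38, 12.07 and 12.59 in control and 11.13, 11.61 and 11.08 in Ota cells, and 11.07, 11.09 and 10.82 and 10.96, 10.86 and 10.90 at 24 h. At 72 h the groups were apart and SEC61A1 was 2.11-fold lower (-1.08 ± 0.16, adjusted p = 0.000528), while at 24 h it differed by -0.09 ± 0.16 and the arrays overlapped. SEC63, which recruits the ER chaperone HSPA5 to the channel, read 12.14, 11.95 and 12.14 in control and 10.60, 11.17 and 10.67 in Ota cells at 72 h. Ota replicate 2 was the highest Ota array for both genes, and still lay below every control array. SEC63 was 2.4-fold lower at 72 h (-1.26 ± 0.14, adjusted p = 7.9e-05), after -0.16 ± 0.14 at 24 h. This rests on the probe set read: the call was lost with the mean of the SEC63 probe sets (-0.47, adjusted p = 0.0674), and without the shared-probe sets the difference was 0.081 (adjusted p = 0.749). SEC61B, a small tail-anchored subunit of the channel, and TRAM1, which helps chains into the membrane, were lower by 1.43-fold and 1.35-fold at 72 h. SEC62, the partner of SEC63 in posttranslational import, was not called at either time (0.32 ± 0.11 at 24 h, adjusted p = 0.0518, and 0.07 ± 0.11 at 72 h, adjusted p = 0.655).

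All 4 TRAP subunits were lower at 72 h. SSR2, the beta subunit, read 12.26, 12.20 and 12.38 in control and 11.08, 11.47 and 11.18 in Ota cells, and SSR1, the alpha subunit, read 13.48, 13.40 and 13.66 and 12.43, 12.78 and 12.44. In both genes every Ota array was below every control array. The differences were -1.03 ± 0.11 for SSR2 (adjusted p = 6.63e-05) and -0.97 ± 0.15 for SSR1 (adjusted p = 0.000632), with SSR3 and SSR4 lower by 1.37-fold and 1.47-fold. At 24 h none of the 4 was called, and SSR1 was nearest to it (-0.42 ± 0.15, adjusted p = 0.0515). The SSR1 probe sets went opposite ways at that time. On 225435_at the 24 h arrays read 9.47, 9.66 and 9.32 in control and 11.14, 11.13 and 10.90 in Ota cells. Without shared-probe sets SSR1 was called higher at 24 h.

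In the SRP and its receptor, 3 of 4 members were lower at 72 h. SRP72 and SRP68, which bind each other on the SRP RNA, were lower by 1.48-fold and 1.36-fold, and the receptor's beta subunit SRPRB by 1.43-fold. SRP54, the subunit that binds the signal peptide, differed by -0.06 ± 0.09 and was not called. Signal peptidase was split in the same way. SPCS1 and SPCS2 were lower at 72 h by 1.4-fold and 1.57-fold, and SPCS3 was not called (0.13 ± 0.11, adjusted p = 0.372). SPCS3 was also the 1 member that fell over time in control cells, from 12.04 ± 0.22 to 11.54 ± 0.06 (difference -0.51 ± 0.11, adjusted p = 0.00252). It fell in Ota cells as well, by 0.36 (adjusted p = 0.0242), a call lost without Ota replicate 1 or 3 of 24 h or Ota replicate 1 or 2 of 72 h, with the mean of its probe sets (adjusted p = 0.0779) and without shared-probe sets (adjusted p = 0.321).

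The COPII coat was mixed, with 6 of 11 members lower at 72 h. SEC24 proteins are the subunits that bind cargo, and their 4 paralogues ranged widely. SEC24D read 10.38, 10.44 and 10.62 in control and 9.01, 9.90 and 9.25 in Ota cells at 72 h, a 2.13-fold lower level (-1.09 ± 0.21, adjusted p = 0.0027). At 24 h SEC24D had read 8.87, 8.46 and 8.99 and 8.57, 8.84 and 8.46, and the groups overlapped. SEC24A read 10.76, 10.96 and 11.14 in control and 10.19, 10.77 and 10.47 in Ota cells at 72 h (-0.48 ± 0.16, adjusted p = 0.041), and 9.69, 9.64 and 9.97 and 10.03, 10.38 and 10.15 at 24 h (0.42 ± 0.16, adjusted p = 0.069). Its Ota arrays were thus all above the control arrays at 24 h, without a call, and not above them at 72 h. SEC24B, at 10.33, 10.48 and 10.34 and 10.57, 10.72 and 10.52 at 24 h and 10.68, 10.79 and 10.82 and 10.53, 10.62 and 10.44 at 72 h, was called at neither time. SEC24C, at 9.51, 9.37 and 9.01 and 9.26, 9.37 and 9.01 at 24 h and 9.67, 9.66 and 9.75 and 9.12, 9.42 and 9.05 at 72 h, was lower at 72 h (-0.50 ± 0.14, adjusted p = 0.0219). The SEC24A and SEC24C calls were lost without Ota replicate 1 or 3 or control replicate 3 at 72 h, among others.

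Of the SEC23 paralogues, neither was called at 72 h. SEC23A at 24 h read 11.20, 11.05 and 11.33 in control and 11.39, 11.27 and 11.31 in Ota cells and 11.32, 11.23 and 11.33 and 11.08, 11.26 and 11.14 at 72 h. SEC23B read 11.79, 11.80 and 11.79 in control and 11.20, 11.55 and 11.54 in Ota cells at 72 h, a difference of -0.36 ± 0.15 (adjusted p = 0.0915). The outer coat subunits SEC31A and SEC13 were lower by 1.66-fold and 1.62-fold. SEC16A, the scaffold of ER exit sites, stayed within its replicate spread at both times (-0.02 ± 0.12 and -0.05 ± 0.12).

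The COPI coat was lower in 4 of 7 members at 72 h. COPB2 differed by -0.63 ± 0.11 (adjusted p = 0.00119), a call that was lost, at 0.26, once its probe sets were averaged (adjusted p = 0.117). COPA differed by -0.57 ± 0.11 and COPB1 by -0.38 ± 0.09. ARCN1, the delta subunit, was lower by 1.24-fold with an adjusted p of 0.0456, and its call was lost in 9 of the 12 fits that left out 1 array. COPE, COPG1 and COPZ1 were not called. COPG1 had the widest spread of these: its SE was 0.27, so a difference of -0.52 ± 0.27 was not distinguishable from 0.

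All 5 p24 members tested were lower at 72 h, by 1.26-fold for TMED5 to 1.59-fold for TMED10. TMED10 read 13.12, 13.07 and 13.13 in control and 12.41, 12.54 and 12.36 in Ota cells at 72 h, so the member that was higher at 24 h was lower at 72 h (-0.67 ± 0.08, adjusted p = 0.000185). Of the cargo receptors, LMAN1 and MCFD2, which together carry blood clotting factors out of the ER, were lower, as was SURF4. LMAN1 read 12.51, 12.46 and 12.66 in control and 11.71, 11.93 and 11.67 in Ota cells (-0.77 ± 0.10, adjusted p = 0.000293). MCFD2 read 12.83, 12.99 and 13.00 in control and 11.93, 12.30 and 11.95 in Ota cells (-0.88 ± 0.11, adjusted p = 0.000202). In both, the groups did not overlap at 72 h. SURF4 was lower by 1.44-fold, and the lectin LMAN2 was not called (-0.35 ± 0.15, adjusted p = 0.111).

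All 4 SNAREs were lower at 72 h. STX5 read 7.21, 7.29 and 7.50 in control and 6.35, 6.56 and 6.34 in Ota cells (-0.92 ± 0.18, adjusted p = 0.00319). GOSR2 read 8.78, 8.70 and 8.97 in control and 7.85, 8.24 and 7.68 in Ota cells (-0.90 ± 0.30, adjusted p = 0.0414). SEC22B read 12.87, 13.00 and 13.18 in control and 12.27, 12.18 and 12.38 in Ota cells (-0.74 ± 0.23, adjusted p = 0.0278). No Ota array of these genes reached its control arrays. BET1, the fourth SNARE of the set, was lower by 1.31-fold. The calls of BET1, GOSR2 and SEC22B were each lost when 1 of several arrays was left out, control replicate 3 at 72 h among them.

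The response at 72 h was compared with that at 24 h by the difference of the 2 differences. It was below 0 at an adjusted p below 0.05 in 21 members and above 0 in 0, against 5.79% and 15.5% of all genes. The median was -0.50 for the members and 0.09 for all genes. SEC63 (-1.11 ± 0.20), MCFD2 (-1.07 ± 0.16), LMAN1 (-1.04 ± 0.15) and TMED10 (-1.03 ± 0.12) had the greatest differences of response. Without shared-probe sets, where the gene has another, TMED10 was at -0.50 (adjusted p = 0.0579) and its call was lost, as were those of SEC13, SPCS2, SRPRB and TMED2. All 3 cargo receptors that were lower at 72 h were among the 21. None of the 4 SNAREs and neither KDEL receptor was called as reported. With the replicate number as a block, BET1 (adjusted p = 0.0263), KDELR1 (adjusted p = 0.022) and SRP68 were called as well, and SEC24D was not (adjusted p = 0.051). SAR1B and SEC22B, lower at both times, had differences of response of 0.20 ± 0.29 and 0.06 ± 0.32. Under repeated quantile normalization and under the shift to a common median over the genes tested, the share of higher calls among all genes called in this comparison went from 72.8% to 62.4% and 49.6%.

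Over time, 34 of the 49 members rose in control cells and 1 fell, while in Ota cells 7 rose and 2 fell. The change in control cells and the Ota comparison at 72 h use the same control arrays, so a high reading there enters both. In control cells SEC24D rose 3.26-fold, GOSR2 3.13-fold, MCFD2 2.88-fold and SEC61A1 2.57-fold from 24 h to 72 h. By role, the members that rose in control cells were 4 of 5 in the channel, 4 of 4 in TRAP, 3 of 4 in the SRP, 1 of 3 in signal peptidase, 6 of 11 in COPII and 4 of 7 in COPI. Among the carriers, 0 of 2 KDEL receptors, 5 of 5 p24 members, 3 of 4 cargo receptors and 4 of 4 SNAREs rose. In Ota cells SEC24D, SEC31A, TMED5, MCFD2, STX5, GOSR2 and SEC22B rose, by 1.7-fold, 1.34-fold, 1.63-fold, 1.37-fold, 1.5-fold, 2.87-fold and 1.84-fold. Of these, only TMED5, MCFD2 and GOSR2 kept the call with each array left out in turn, and the count of rises was 4 without Ota replicate 2 of either time. GOSR2 and SEC22B rose in both (1.65 ± 0.30 and 1.52 ± 0.30, 0.82 ± 0.23 and 0.88 ± 0.23), with differences of response of -0.12 ± 0.43 and 0.06 ± 0.32. KDELR3 was called over time in neither (0.28 ± 0.13 in control and -0.19 ± 0.13 in Ota cells). Of all genes called over time in Ota cells, 69.0% were higher, and 58.2% and 45.5% under the same 2 other scalings; 10 members were then called lower in Ota cells under the shift to a common median.

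**Figure D4:**
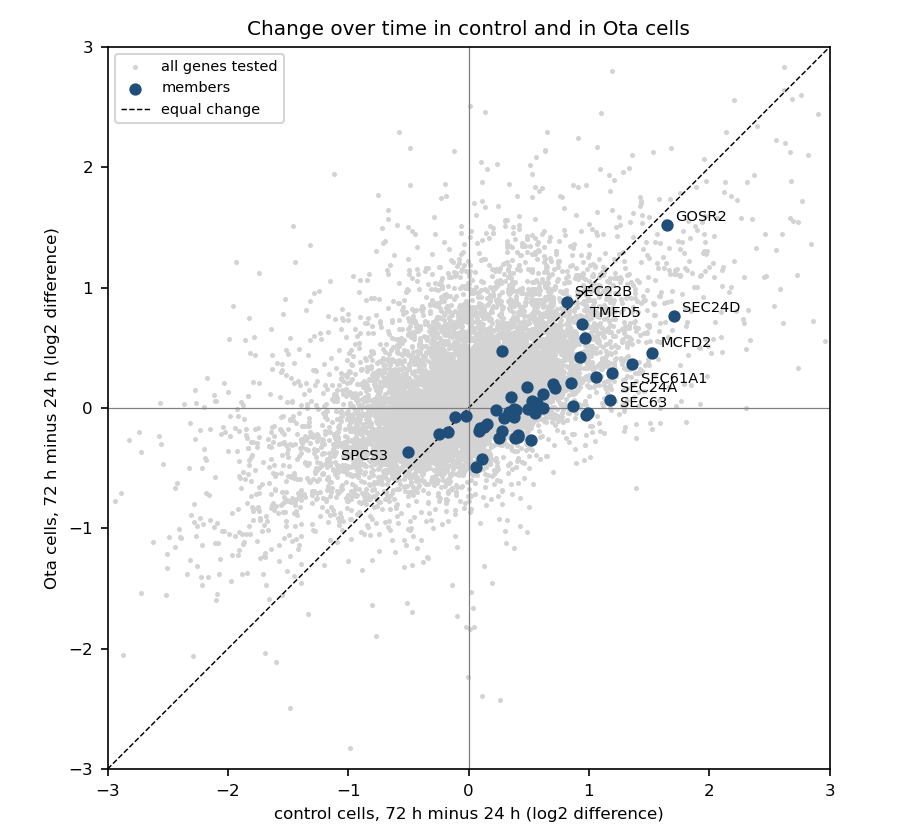
Log2 change from 24 h to 72 h in control cells (horizontal) and in Ota cells (vertical) for the 49 members (dark points) and all genes tested (grey), with a dashed line of equal change. The axes end at 3, which leaves out 34 genes, none of them a member. Of the members, 44 lie below the dashed line and 5 above it.

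Most members are represented by several probe sets, which read different stretches of the transcripts, and these did not always go the same way. Of the 137 probe sets, 113 passed the filter and were tested in a second fit over all 19460 probe sets with 1 gene symbol. At 72 h, 70 were lower and 5 higher, against 12.3% and 16.8% of all those probe sets. At 24 h, 15 were lower and 18 higher, against 19.0% and 12.3%. At that time 1 of the 15 was above the limit of 4 in 1 group alone and 1 of the 18 in neither group. The 18 higher ones were mostly not the probe set read for the gene: 16 of the 64 others were higher at 24 h, against 2 of the 49 read. When the probe sets of each gene were averaged, the 72 h calls of COPB2, KDELR1, SEC63, SPCS2 and TMED5 were lost. Calls of COPZ1, SAR1A, SEC23B and SEC24B as lower and of SEC62 as higher were gained in that setting. Without shared-probe sets, the 72 h calls of GOSR2, SEC63, SPCS2, SSR3 and TMED2 were lost. COPZ1 was then gained as lower, and SAR1B was higher (0.34, adjusted p = 0.0407). Levels of different probe sets are not comparable, so only their differences are set side by side here.

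COPB2 gave the greatest such contrast. Its probe set 226256_at at 24 h read 4.94, 4.54 and 4.56 in control and 7.28, 8.19 and 7.04 in Ota cells, and 5.07, 5.07 and 4.74 and 6.11, 6.18 and 6.05 at 72 h. The Ota arrays were above the control arrays at both times, by 7.08-fold (2.82 ± 0.25) and 2.22-fold (1.15 ± 0.25), where 201098_at, the one read for the gene, was lower at both. The control level of 226256_at lay near the filter limit of 4, where a fold change is uncertain. SAR1B held 3 probe sets called lower at 24 h and 2 called higher. The latter include 230397_at, which was below the limit of 4 on every array of 24 h, so its call there compares 2 groups under the limit. The other, 226742_at, read 8.15, 8.06 and 8.30 in control and 9.44, 9.73 and 9.49 in Ota cells (1.38 ± 0.12, adjusted p = 7.9e-06). COPB2 and SAR1B were the members with calls in both directions at 1 time, at 24 h and again at 72 h.

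For SEC63, 3 other probe sets were higher at 24 h, the greatest being 229969_at. At 24 h it read 7.49, 6.90 and 7.22 in control and 9.45, 9.70 and 9.29 in Ota cells (2.28 ± 0.17), and 9.34, 9.36 and 9.45 and 9.21, 9.72 and 9.47 at 72 h (0.08 ± 0.17, not called). On that probe set the Ota arrays at 24 h overlapped the control arrays at 72 h. SSR1 showed a like reading on 226712_at (2.14 ± 0.20 at 24 h and -0.25 ± 0.20 at 72 h). For SEC62, 1552790_a_at and 1552789_at were higher at both times (1.93 ± 0.13 and 1.87 ± 0.13 at 24 h, 0.66 ± 0.13 and 0.71 ± 0.13 at 72 h). SPCS2 on 243570_at (1.89 ± 0.45) and TMED5 on 242263_at (1.52 ± 0.14) were also higher at 24 h. The cause of these contrasts was not tested.

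SAR1A and GOSR2 held contrasts of the opposite sense. SAR1A was not called on the probe set read for it, while its probe set 201543_s_at read 9.36, 9.39 and 9.68 in control and 7.33, 7.83 and 7.82 in Ota cells at 24 h (-1.82 ± 0.15, adjusted p = 6.41e-06) and was lower at 72 h too (-1.28 ± 0.15). GOSR2 was lower at 24 h on 4 of its 6 other probe sets, between -1.69 on 213144_at and -1.10 on 213180_s_at. KDELR3 had 2 other probe sets at 24 h, of which 207265_s_at was lower (-1.96 ± 0.12). Of the 24 h arrays of 207264_at, the 3 control arrays alone were above the limit of 4, so it passed the filter through the group where it was high, and its call is no support. At 72 h 207265_s_at was lower by 4.96-fold, while 207264_at was below the limit of 4 in both groups. SEC61A1 was lower at 72 h on its other probe set, 217716_s_at, as well (-0.88 ± 0.16). Both of its tested probe sets carry a suffix that marks probes shared with other transcripts, so neither is free of that limit.

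**Figure D5:**
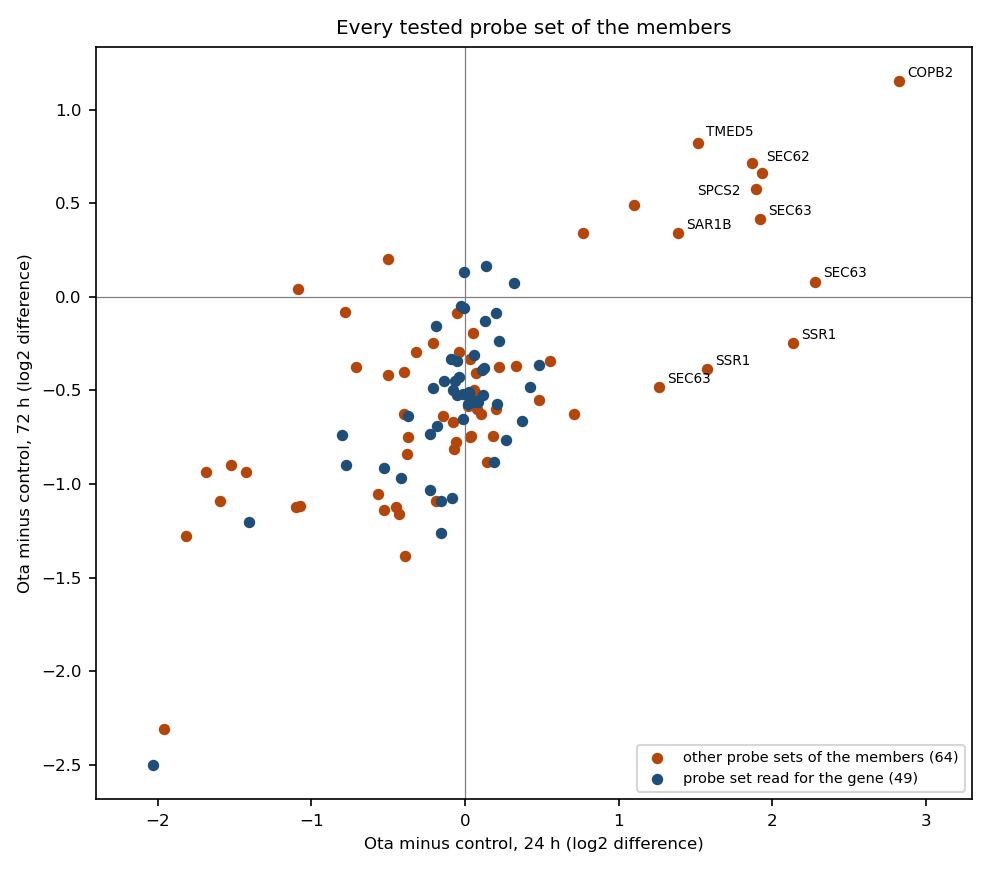
Log2 difference, Ota minus control, at 24 h (horizontal) and 72 h (vertical) of the 113 probe sets tested, with the 49 read for the gene in dark blue and the 64 others in brown. Names mark the other probe sets that were higher at 24 h by more than 1.2, SEC62 having a pair of them under 1 name; the lone points at the lower left are the KDELR3 probe sets.

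Promoter sequence was examined because many members moved together and several are known targets of the unfolded protein response. RefSeq promoter sequences of GRCh38.p14 were given for 48 of the 53 listed genes; SEC24D, SPCS1, TMED9, TRAM1 and KDELR2 had none. The 250 bases before each start were searched on both strands for the 8-base core TGACGTGG, the part of the unfolded protein response element (UPRE) that ATF6 and XBP1 are known to bind. It was found in 8 of the 48 genes (16.7%) and in 213 of all 27305 genes with a promoter (0.78%). The 8 stretches follow, each read 5′ to 3′ along the strand of its gene, with the core or its reverse complement CCACGTCA in capitals:
COPB1 (chr11:14499827-14499884, minus strand): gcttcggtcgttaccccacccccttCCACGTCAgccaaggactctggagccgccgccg
COPB2 (chr3:139389811-139389868, minus strand): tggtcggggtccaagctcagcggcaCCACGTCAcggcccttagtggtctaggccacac
KDELR3 (chr22:38468025-38468082, plus strand): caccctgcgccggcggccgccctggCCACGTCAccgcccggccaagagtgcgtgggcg
SEC24A (chr5:134648581-134648638, plus strand): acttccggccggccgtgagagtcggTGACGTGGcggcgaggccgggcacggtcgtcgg
SEC62 (chr3:169966765-169966806, plus strand): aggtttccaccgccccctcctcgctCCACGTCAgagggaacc
SSR3 (chr3:156554134-156554191, minus strand): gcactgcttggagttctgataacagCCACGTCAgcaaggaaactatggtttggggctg
SSR4 (chrX:153794514-153794571, plus strand): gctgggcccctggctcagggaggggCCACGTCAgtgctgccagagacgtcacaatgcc
STX5 (chr11:62832052-62832092, minus strand): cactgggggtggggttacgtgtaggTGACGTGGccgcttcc
Counted from the start, the core lay between base -196 in COPB2 and base -9 in STX5. COPB2 has another annotated start, for which the same core begins at base -163. SSR3 has 3 annotated starts and SSR4 has 2, and in each gene only 1 of them has the core in its window. Of these 8 genes, 7 were lower at 72 h and SEC62 was not called, and the other 41 members tested held 30 that were lower. The 41 include SEC24D, SPCS1, TMED9 and TRAM1, which had no promoter sequence to search and were each lower at 72 h. At 24 h, 3 of the 8 were lower, COPB2, KDELR3 and STX5, as were 2 of the other 41. A match of letters is not a bound site, and its part in the values was not tested.

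The other motifs were rare or at the general level among the members. The ER stress response element (ERSE), CCAAT and CCACG with any 9 bases between them, was in 0 of the 48 member genes and in 0.0916% of all genes. A related element, ERSE-II, ATTGG and CCACG with any 1 base between them, was also in 0 of 48, against 0.0659% of all. Both share the letters CCACG with the reverse complement of the UPRE core. By contrast 5 of 11 genes of retained ER proteins held the ERSE: CALR, CRELD2, HSP90B1, HSPA5 and PDIA6. The core TGATGNAA, bound by ATF4 and its partners, was in 2 member genes, MCFD2 and SRPRB (4.17%), and in 3.89% of all genes.

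The genes of ER proteins that KDEL receptors retrieve were called in the same comparisons as most members. All 12 listed, chaperones and folding enzymes among them, were lower at 72 h (median -0.98), where 14.9% of all genes were lower. At 24 h 0 of 12 were called (median 0.05), against 21.6% lower and 9.44% higher among all genes. In control cells 12 of 12 rose over time, with a median of 2.36, where 22.7% of all genes rose. In Ota cells 6 of the 12 rose, with a median of 0.84, where 22.2% of all genes rose. HSPA5, the main Hsp70 chaperone of the ER, differed by -0.27 ± 0.19 at 24 h and -0.60 ± 0.19 at 72 h (adjusted p = 0.0289). HYOU1 (-2.04 ± 0.23), HSP90B1 (-1.61 ± 0.20) and PDIA6 (-0.77 ± 0.10) were the 3 with the smallest p at 72 h.

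Sensors and factors of the unfolded protein response were called lower at 72 h in 6 of 11 genes tested and higher in 0. At 24 h 3 were higher and 3 lower. Of all genes tested, 14.9% were lower and 17.1% higher at 72 h, and 21.6% and 9.44% at 24 h. ATF6, a membrane-bound factor activated by cleavage in the Golgi, was higher at 24 h (0.93 ± 0.11, adjusted p = 8.26e-05) and not called at 72 h (-0.23 ± 0.11). XBP1, whose mRNA is spliced by the sensor ERN1, was lower at both times (-0.57 ± 0.14 and -0.66 ± 0.14). CREB3, a Golgi-cleaved factor of the same family, was also lower at both (-0.89 ± 0.11 and -0.83 ± 0.11). CREB3L2, a factor known to activate SEC23A and other COPII genes, was lower at 72 h (-1.18 ± 0.13, adjusted p = 7.3e-05) and not at 24 h (-0.07 ± 0.13). ATF4 was lower at 72 h (-0.65 ± 0.12).

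Partners of the members in the same pathway were called in both directions, with more lower than higher at 72 h in each list. At 72 h, 14 of 34 further SRP, translocon and membrane insertion genes were lower and 1 was higher, with a median of -0.20. Among all genes tested, 14.9% were lower and 17.1% higher at that time. SEC11C, a catalytic subunit of signal peptidase, was lower by 2.64-fold (-1.40 ± 0.17), and MAGT1 (-0.81 ± 0.10) and OSTC (-0.96 ± 0.15), both of the oligosaccharyltransferase, followed. Of 21 ER exit partners, 7 were lower and 2 higher (median -0.18). MIA3, which helps load collagen into COPII carriers, was lower at both times (-0.61 ± 0.09 and -0.77 ± 0.09), and its relative MIA2 was higher at 24 h (0.64 ± 0.15) and lower at 72 h (-0.76 ± 0.15). PREB, the exchange factor that loads SAR1, was lower at both times (-1.19 ± 0.19 and -0.69 ± 0.19), as was YIF1A (-1.03 ± 0.09 and -0.87 ± 0.09).

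Of 25 COPI and retrieval partners, 10 were lower and 2 higher at 72 h (median -0.30). USE1, a SNARE of retrograde traffic to the ER, was lower at both times (-1.22 ± 0.15 and -1.19 ± 0.15), ARF3 (-1.20 ± 0.12) and TMED1 (-0.92 ± 0.11) were lower at 24 h, and BET1L (-0.73 ± 0.13) and ARFGAP2 (-0.70 ± 0.17) at 72 h. Of 24 tethering and fusion factors, 9 were lower and 1 higher (median -0.16). COG6 (-0.73 ± 0.11), SCFD1 (-0.64 ± 0.12) and TRAPPC2 (-0.70 ± 0.13) led at 72 h, and TRAPPC1 (-0.71 ± 0.09), TRAPPC5 (-0.62 ± 0.10) and COG8, which was higher (0.64 ± 0.11), at 24 h. At 24 h the 4 partner lists held 6, 4, 5 and 5 genes lower and 2, 1, 1 and 2 higher, in the order given here. Of all genes tested, 21.6% were lower and 9.44% higher at 24 h, so the lower counts of the lists lie near the general share. At 72 h the shares of all genes were 14.9% lower and 17.1% higher.

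Arrays of a group correlated at 0.986 to 0.994, no pair held identical values, and the upper quartile of all values was 6.89 to 7.11. For actin, the 3′ control probe set exceeded the 5′ one, a sign of RNA quality, by log2 differences of 0.89 to 1.33. All 8 epithelial markers were above the limit of detection. At 72 h 3 of them were lower in Ota cells and 0 higher, against 14.9% and 17.1% of all genes: KRT18 (-0.87 ± 0.11), KRT7 (-0.68 ± 0.14) and CDH1 (-1.11 ± 0.23). In control cells 5 of the 8 rose over time, those 3 with EPCAM and OCLN, and 1 fell, against 22.7% and 23.6% of all genes. Of 12 proximal tubule markers, GATM and PDZK1 alone were, and LRP2, CUBN and AQP1 were not. Both were higher in Ota cells at 72 h (GATM 0.62 ± 0.22, PDZK1 0.46 ± 0.13). Endothelial (0 of 8) and leukocyte markers (0 of the 5 with a probe set) were below it, as were 5 of 8 fibroblast markers. COL1A1, DCN and LUM, the other 3, fell over time in control cells, and 2 of them were higher in Ota cells at 72 h, with group means of 9.91 and 11.00 for DCN. Their part in the results was not tested.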

How the data were processed

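Gene expression was measured on 12 arrays of HK-2 cells, 3 in each of 4 groups. The deposited values are log2 values, 1 per probe set and array, which the authors computed by GCRMA according to the submitters' processing notes. That method takes off a background predicted from each probe's bases, brings the arrays to 1 distribution and condenses each set's probes into 1 value. Its version and settings are not given in the sources used here. Near the floor of these values fold changes are uncertain, and quantile normalization hides a shift of all RNA in 1 direction. Arrays carry no read depth, and their number limits the precision.

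Of 54675 probe sets, 62 controls were left out. Platform annotation paired 1 symbol with 41091, several with 1801 and none with 11721; symbols were updated through RefSeq gene identifiers (GRCh38.p14) for 41037 and kept for 54. Several symbols were paired with 4 probe sets of SEC22B and TMED7, which were left out. Each gene was read from the probe set whose mean over the 12 arrays was highest and tested where that was above 4 on at least 3 arrays. In limma 3.58.1 (R 4.3.3), lmFit and eBayes fitted 1 mean per group over all 12 arrays (8 residual and 3.31 prior degrees of freedom), with Benjamini-Hochberg adjustment over all genes and calls at an adjusted p below 0.05. On data simulated for the 72 h comparison over 10699 genes, the fit recovered 80 of 100 genes changed by 1 and 47 of 100 changed by 0.5 (log2), and called 12 unchanged ones. The simulated noise was independent between arrays and no other genes were changed, where the data held 1827 higher and 1594 lower calls at 72 h. These rates therefore need not hold for the data. All probe sets with 1 symbol were fitted likewise. Promoter motifs were counted with no test.

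Replicate numbers pair the samples at 24 h: same-numbered Ota and control arrays deviated together from their group means at correlations of 0.323 to 0.455, each over 0.1, as seen in the data and not stated in the labels. At 72 h the correlations were 0.0674 to 0.268, not each over 0.1. Between all 4 groups, 14 of 18 same-numbered pairs of arrays were over 0.1, against 1 of 36 other pairs. All 12 arrays correlated best, on average, with arrays of their own replicate number. The fit reported here has no term for the replicate number, which enters as a block only among the alternatives.

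Alternatives changed the scaling, filter, probe set choice, samples in the fit, eBayes settings, replicate block, fold limit and, in turn, each array. Values per array are given for the members called with the greatest differences whose groups did not overlap, up to 12 per comparison and direction, and for paralogues. Of each other list up to 3 called genes with the smallest p per Ota comparison are named, with HSPA5, XBP1, ATF6 and CREB3L2. The members and lists were chosen with earlier results of these data known. Tables were handled with data.table (version 1.17.8) and pandas 2.3.3, figures with matplotlib 3.10.9 (Python 3.11.15).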

Additional observations from a re-analysis of the deposited data

Results flagged for a closer look

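The response to Ota differed between 72 h and 24 h in 21 members, by limma's test of the difference of the 2 responses at an adjusted p below 0.05; all 21 values were below 0. On the log2 scale the response at 72 h minus that at 24 h was -1.11 for SEC63, -1.07 for MCFD2, -1.04 for LMAN1, -1.03 for TMED10 and -0.99 for SEC61A1. It was -0.94 for SEC24D, -0.90 for SEC24A, -0.85 for SEC23B, -0.80 for SSR2 and -0.78 for TMED2. It was -0.65 for TMED9, -0.64 for each of SPCS2, SURF4 and SSR4, and -0.62 for SRP72. The lowest sizes were -0.59 for COPA, -0.53 for SEC61B, -0.51 for SEC13, -0.50 for SRPRB and for COPB1, and -0.45 for SEC24B. SEC23B and TMED10 were called higher at 24 h, and of these TMED10 alone was called lower at 72 h. Of the 21 calls, 15 held with each array left out in turn, and those of COPA, COPB1, SEC13, SEC24B, SEC24D and SRPRB did not. Between 15 and 23 members had such a call in those fits.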

How the results depend on the processing

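The counts of members lower at 72 h (27 to 38), of members with a lower response at 72 h than at 24 h (15 to 31) and of members that rose in control cells (23 to 36) stayed within 1.5 times those reported under every alternative run. Members higher at 24 h (2 as reported) were 1 without a filter or with only the groups compared, 6 with the mean over each gene's sets or without shared-probe sets, 4 with trended robust eBayes, 4 with the replicate block, 0 with a difference of at least 0.5 as well, 8 with the added shift, and 1 to 4 with 1 array left out. Members lower at 24 h (5) were 3 without a filter, 2 with only the groups compared, 3 with the added shift, and 2 to 5 with 1 array left out. Ota replicates 1 and 2 and control replicate 3 of 24 h moved that count to 3, 2 and 2. Any Ota array or control replicate 1 of 24 h left out gave 1 member higher, and control replicate 3 gave 4. Members higher at 72 h (0) were 1 with the mean of probe sets and 1 without shared-probe sets. Members that fell in control cells (1) were 2 with the mean of probe sets and 1 to 2 with 1 array left out. In Ota cells those that rose were 4 to 8, and those that fell (2) were 0 with a difference of at least 0.5, 3 without shared-probe sets, 10 with the added shift and 0 to 2 with 1 array left out. They were 0 without Ota replicate 1 of either time.

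Probe set choice turned 5 values. Without shared-probe sets TMED10 at 24 h was -0.14, SAR1B was 1.38 at 24 h and 0.34 at 72 h, and SEC63 at 72 h was 0.081; with the mean of its probe sets COPB2 at 24 h was 1.22. These read other probes of the gene. Of the remaining repeats of named values, 374 kept direction and call and 56 kept direction alone; the cause was not tested. The replicate block kept all 37 members lower at 72 h and added SEC24B, and changed no call of another member at that time. The fit with only the groups compared was not run for the difference of responses, which uses all 4 groups. Signal near the floor limits the dim probe sets of COPB2, KDELR3, SAR1B, SPCS2 and SSR1, and 24 probe sets of members were not tested for that reason.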

Other observations

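The members fell into 15 patterns of calls over the 5 comparisons. The most frequent held 15 members, which were not called at 24 h, lower at 72 h, lower in the difference of responses, higher over time in control cells and not called over time in Ota cells. As reported, no call in any comparison was made for 9 members: COPE, COPG1, COPZ1, LMAN2, SAR1A, SEC16A, SEC23A, SEC62 and SRP54. With the mean of their probe sets, COPZ1, SAR1A and SEC62 were called at 72 h. The comparisons share arrays, so calls in different comparisons are not independent of each other.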
